A study of Mus musculus with 10 samples.

Results

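The genes described here are *Gpnmb*, *Rragd* and 8 further genes of MiT/TFE lysosomal signalling, 10 genes of the 22180 measured. They are the transcription factors *Tfeb*, *Tfe3* and *Mitf*, the Rag GTPases *Rragc* and *Rragd*, the folliculin pair *Flcn* and *Fnip2*, and 3 genes known as targets of these factors, *Gpnmb*, *Sqstm1* and *Cd63*. The set was selected on the log2 values of these arrays, with the difference between the genotypes in view. Their difference between knockout and control livers is therefore given as a description, and where genes past a threshold are counted, the share of all genes stands beside the count and nothing is read from it. Each gene was read by 1 probe set that carries its symbol alone, and all 10 were measured.

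RNA was taken from the livers of 6 *Vps33b* fl/fl-AlfpCre mice, the knockout group (males 1, 2 and 3, females 4, 5 and 6), and from 4 Cre-negative *Vps33b* fl/fl littermates, labelled wild type and called controls (males 1 and 2, females 3 and 4). All 10 mice, controls included, carried the loxP-flanked *Vps33b* alleles on a C57BL/6 J background and were fed a diet of 0.5% cholic acid (CA), which is a primary bile acid. By the labels CA feeding began at 10 weeks of age and ran for 2 weeks, whereas the methods of the study give an earlier start and a longer course. AlfpCre removes *Vps33b*, which encodes a protein of vesicle traffic, from hepatocytes and cholangiocytes, so the other cells of a knockout liver keep the gene. There was 1 array per mouse, and values are log2 expression after RMA, the normalisation the authors applied. The probe set of *Vps33b* read 8.92 to 9.39 in knockout livers and 9.12 to 9.15 in control livers, which checks nothing about the labels, because no source used here says which exons the probe set covers.

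TFEB, TFE3 and MITF belong to the MiT/TFE family, which turns on genes of lysosomes and autophagy. In fed cells the RagC and RagD GTPases, made active by folliculin with its FNIP partner, bring these factors to the lysosome, where mTORC1 phosphorylates them and holds them in the cytoplasm. On starvation or lysosomal stress the factors enter the nucleus and bind E-box motifs of the CLEAR network. *Rragd* is itself a known target, which closes a feedback loop. GPNMB, a glycoprotein of lysosomes and the cell surface, is a known MITF target that macrophages express when they are laden with lipid or debris. The factors are controlled chiefly by phosphorylation and location, which arrays do not read. In whole liver, a larger number of cells of a type and more RNA per cell cannot be told apart.

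*Gpnmb*, *Rragd* and *Cd63* were far higher in knockout livers, at 2.91, 2.18 and 1.85 on the log2 scale, while the other 7 genes lay within 0.32 of the controls in either direction. In limma, with sex as a term and adjustment over all genes, 3 of the 10 passed the threshold of 0.05 as higher, where 3.11% of all genes did. None passed as lower, where 1.14% of all genes did, and 4 of the 10 had an unadjusted p under 0.05. In 2 of the 10, *Gpnmb* and *Rragd*, every knockout liver lay above every control liver, which held for 3.39% of all genes. The 3 became 2 without control 2 or control 4 and 4 without control 1. Over all genes, 690 were higher with all mice, 233 without control 2, 244 without control 4 and 825 without control 1. Nothing is read from these counts, because the same contrast entered the choice of the genes.

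*Gpnmb* (chr6:49036518-49058182, GRCm38.p6) had the largest difference of the 10. It read 9.20, 9.27, 7.41, 8.99, 8.38 and 9.24 in knockout mice 1 to 6, and 7.34, 5.39, 5.49 and 5.16 in control mice 1 to 4. Control 1 stood well above the other controls, and the groups kept apart by the narrow gap between it and knockout 3. The means were 8.75 ± 0.73 in knockout livers (SD, n = 6) and 5.84 ± 1.01 in control livers (SD, n = 4). The fold change was 7.49, with a 95% interval of 3.78 to 14.8. Without control 1 the log2 difference was 3.43, and without knockout 3 it was 3.24, against 2.91 with all mice.

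*Rragd* (chr4:32982998-33022180), the Rag GTPase that responds to MiT/TFE activity, read 9.32, 8.40, 7.33, 8.02, 7.29 and 7.28 in knockout mice 1 to 6, and 5.79, 5.55, 6.12 and 5.57 in control mice 1 to 4. The spread lay on the knockout side, where mouse 1 was highest, and the controls were close together. The means were 7.94 ± 0.82 in knockout livers (SD, n = 6) and 5.76 ± 0.26 in control livers (SD, n = 4), a fold change of 4.54 with a 95% interval of 2.71 to 7.60. Control 1, high for *Gpnmb*, was not high for *Rragd*, and leaving it out gave a log2 difference of 2.12. Its paralogue *Rragc* (chr4:123917433-123936997), which shares the role at the lysosome, read 8.91 to 9.29 with a median of 9.08 in knockout livers, and 9.05, 8.91, 8.93 and 8.85 in control livers. These ranges overlapped, and the log2 difference of *Rragc* was 0.15 (95% interval -0.04 to 0.34).

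*Cd63* (chr10:128896231-128912822) encodes a tetraspanin of late endosomes and lysosomes. It read 10.07, 10.05, 9.13, 9.96, 9.77 and 9.24 in knockout mice 1 to 6, and 9.30, 7.54, 7.44 and 7.15 in control mice 1 to 4. As with *Gpnmb*, control 1 was the high control and knockout 3 the low knockout, and here the groups overlapped, with 4 of 6 knockout livers above every control. The means were 9.70 ± 0.42 in knockout livers (SD, n = 6) and 7.86 ± 0.97 in control livers (SD, n = 4), a fold change of 3.60 with a 95% interval of 2.15 to 6.00. Without control 1 the log2 difference of *Cd63* was 2.30, against 1.85 with all mice. Without control 2 it was 1.63, and without control 4 it was 1.67.

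*Sqstm1* (chr11:50200152-50210820) encodes p62, the receptor that carries ubiquitinated cargo to autophagosomes. It read 12.57, 12.84, 12.44, 12.85, 12.96 and 12.60 in knockout mice 1 to 6, and 12.77, 12.12, 12.30 and 12.36 in control mice 1 to 4. Control 1 lay among the knockout livers, and the other controls lay below all 6 of them. The log2 difference was 0.32 (95% interval 0.02 to 0.62) with all mice and 0.48 without control 1.

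The transcription factors differed little in transcript level. *Tfe3* (chrX:7762530-7775202) read 8.63 to 8.90 with a median of 8.87 in knockout livers, and 8.78, 8.45, 8.70 and 8.64 in control livers, a log2 difference of 0.16 (95% interval -0.03 to 0.35). *Mitf* (chr6:97807002-98021360) read 6.89 to 7.24 with a median of 6.99 in knockout livers, and 7.19, 6.87, 7.19 and 7.05 in control livers, a difference of -0.07 (95% interval -0.28 to 0.14). *Tfeb* (chr17:47737037-47792416) read 4.54 to 5.02 with a median of 4.73 in knockout livers, and 4.65, 4.98, 4.65 and 4.82 in control livers, a difference of -0.03 (95% interval -0.27 to 0.20). The groups overlapped for all 3 factors, and the intervals leave room for log2 changes no larger than 0.35 in size. *Tfeb* lay close to the background of the array, since the 5 female livers gave 3.38 to 4.51 for 3 genes of the Y chromosome, and a small change of so dim a signal may not be visible. A filter for log2 values of at least 5 in 4 arrays kept 9 of the 10 genes and dropped *Tfeb*.

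Folliculin (*Flcn*, chr11:59791408-59810039), which activates RagC and RagD, read 7.56 to 7.81 with a median of 7.73 in knockout livers, and 7.81, 7.42, 7.61 and 7.65 in control livers. Its partner gene *Fnip2* (chr3:79455971-79568151) read 7.81 to 8.46 with a median of 8.11 in knockout livers, and 7.71, 8.07, 7.97 and 8.25 in control livers. Both pairs of ranges overlapped. The log2 differences were 0.07 for *Flcn* (95% interval -0.13 to 0.28) and 0.12 for *Fnip2* (95% interval -0.12 to 0.37).

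**Figure D1:**
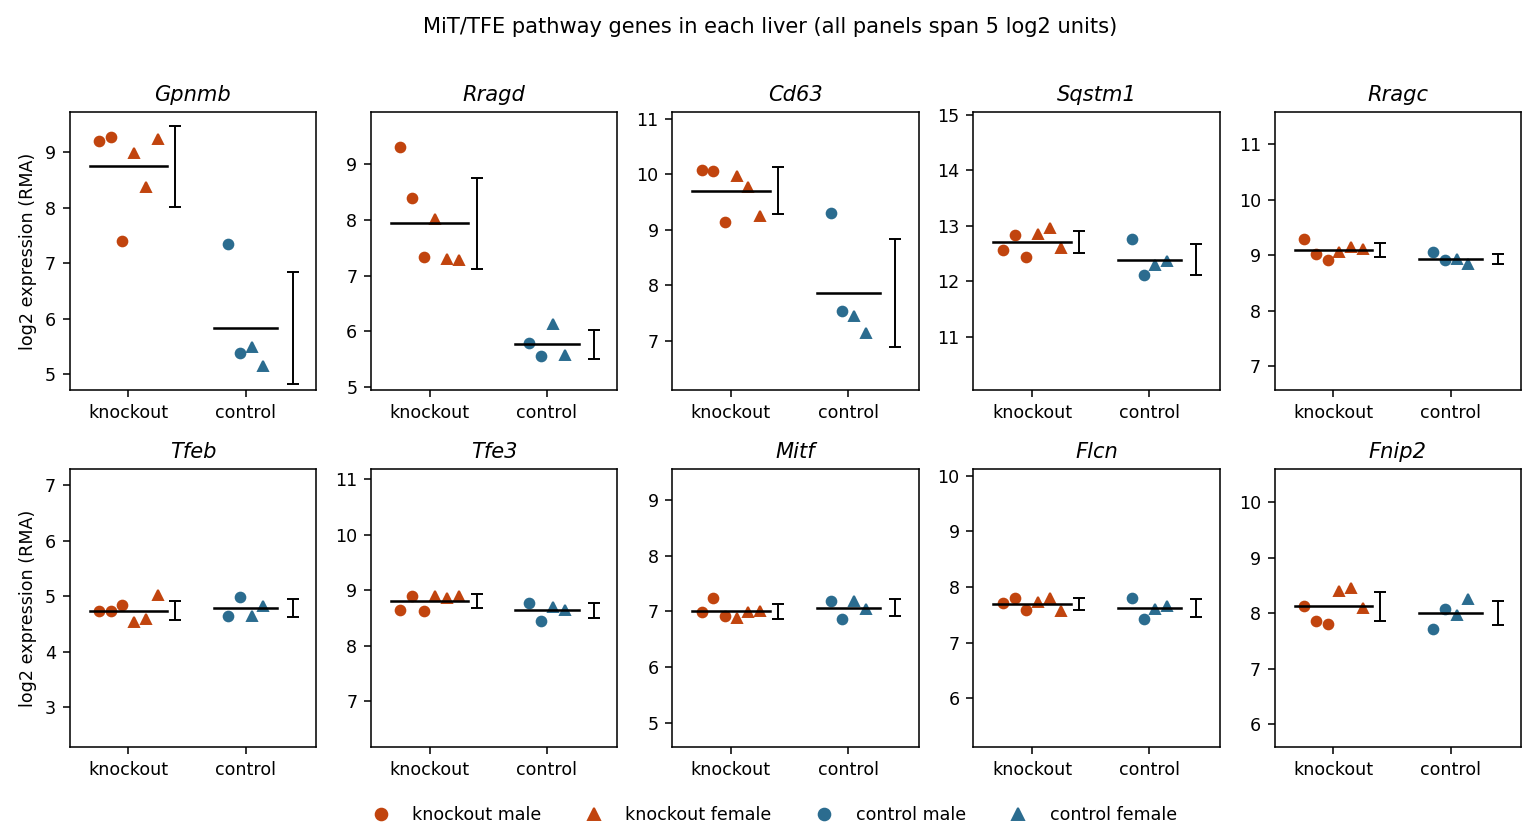
Log2 expression of the 10 genes in each liver, with knockout mice on the left and control mice on the right of each panel. Circles are males, triangles are females, horizontal lines are group means and error bars are ± 1 SD (n = 6 knockout, n = 4 control). Every panel spans the same number of log2 units, and the groups are apart for *Gpnmb* (7.41 to 9.27 in knockout, 5.16 to 7.34 in control livers) and *Rragd* (7.28 to 9.32 in knockout, 5.55 to 6.12 in control livers).

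**Figure D2:**
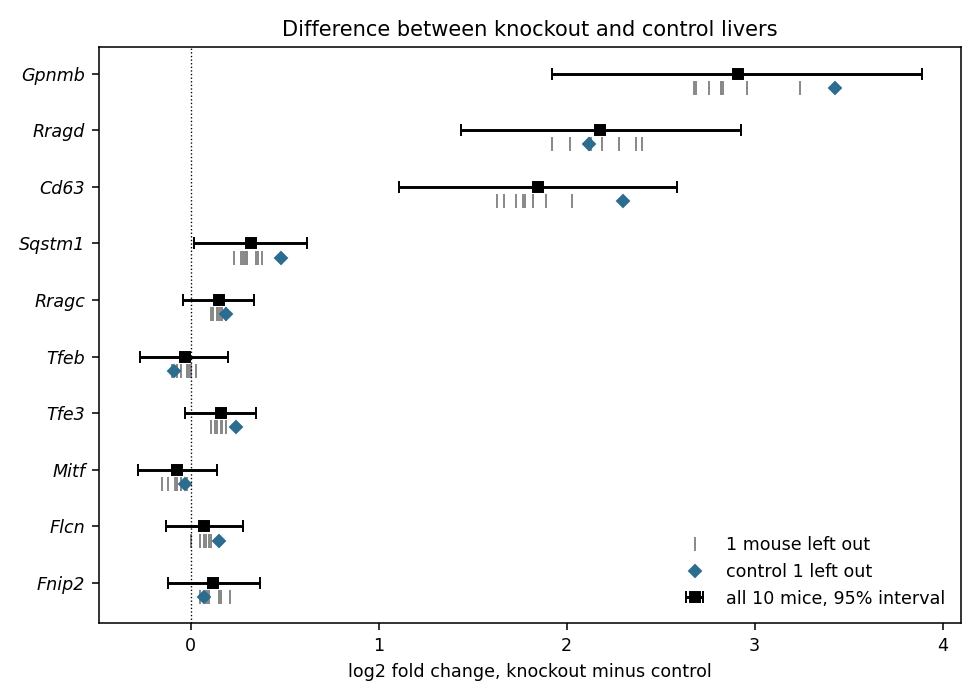
Log2 fold change of each gene, knockout minus control, with its 95% interval from the limma fit on all 10 mice (black squares), with 1 mouse left out (grey ticks) and with control 1 left out (blue diamonds). *Gpnmb* stays between 2.68 and 3.43, *Rragd* between 1.92 and 2.40 and *Cd63* between 1.63 and 2.30 when any 1 mouse is left out.

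Control 1 was the highest control in 6 of the 10 genes, and knockout 3 was the lowest knockout in 6 of the 10. These ranks were not counted over all genes. Array medians were alike, at 4.71 to 4.82, and control 1 was not high in every list of genes given below. It was the lowest control in the mean of the mTORC1 and TSC list (8.93) and the highest in that of the autophagy targets (9.51). Whether the ranks belong to the arrays or to these genes was not tested. To ask whether the genes varied together among mice of 1 genotype, each was set against *Gpnmb* over the 6 knockout livers. The Pearson coefficient with *Gpnmb* was highest for *Cd63*, with r = 0.61 (exact permutation p = 0.203, two-sided, n = 6) and a Spearman rho of 0.54 (exact permutation p = 0.297). The Spearman coefficient was highest for *Mitf*, with rho = 0.71 (exact permutation p = 0.136) and r = 0.48 (exact permutation p = 0.222). For *Rragd* they were r = 0.54 (exact permutation p = 0.231) and rho = 0.26 (exact permutation p = 0.658). None of the 9 genes passed after Benjamini-Hochberg adjustment over the 9, with adjusted p from 0.45 to 0.961 for r by exact permutation and 1.0 for every rho, and 0 of 9 had an unadjusted p under 0.05. Without knockout mice 3 and 5, the farthest from the median of *Gpnmb*, r over the remaining 4 livers was -0.23 for *Cd63* and 0.07 for *Rragd*. It was 0.78 for *Mitf* and 0.72 for *Tfeb*, and between -0.92 and 0.11 for the other 5 genes. These 4 livers spanned only 8.99 to 9.27 for *Gpnmb*, because its extremes had been removed, so nothing is read from r over them. With 6 mice, only a close relation could have passed.

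Deviations from the mean of each genotype and sex bring in the controls. Over all 10 mice these deviations of *Gpnmb* correlated at 0.82 with *Cd63*, 0.78 with *Tfe3*, 0.76 with *Mitf* and 0.66 with *Rragd*, and at -0.32 with both *Tfeb* and *Fnip2*. These are descriptions, since all genes share the same arrays and control 1 weighs in every one. With 2 control males, the deviations of control 1 and control 2 are equal and opposite, so both weigh alike. The plot of *Cd63* and *Rragd* against *Gpnmb* shows where they parted, since control 1 sat beside knockout 3 for *Cd63* and with the controls for *Rragd*.

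**Figure D3:**
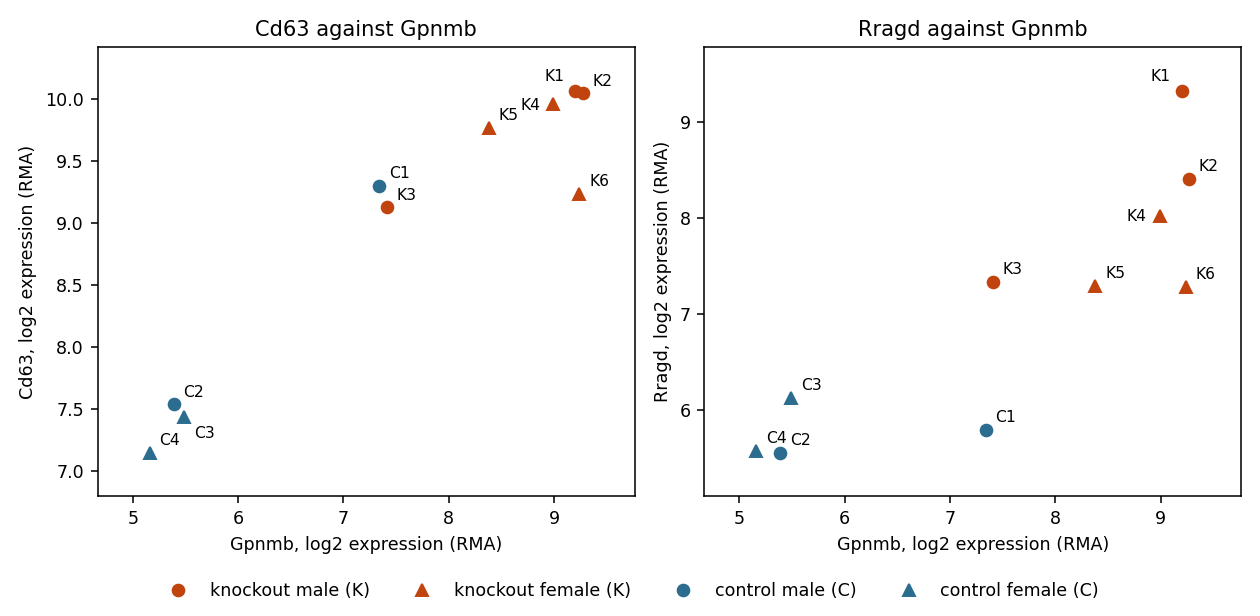
Log2 expression of *Cd63* (left) and *Rragd* (right) against *Gpnmb* in each liver, with knockout mice labelled K, control mice labelled C, circles for males and triangles for females. Control 1 (C1) lies near knockout 3 (K3) for *Cd63*, at 9.30 against 9.13 in K3, and among the controls for *Rragd*, at 5.79.

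Over the 13027 genes with a mean log2 value of at least 5, the 5 whose deviations were most like those of *Gpnmb* were *Gm4997* and *Plaa* at 0.98 and *1700037H04Rik*, *Kif21b* and *Myo18b* at 0.97 (10 mice). Without control 1 and knockout 3 the coefficients of these 5 were 0.82 to 0.93. Deviations are taken from group means, so this likeness leaves out the difference between the groups. *1700037H04Rik* averaged 6.79 in knockout and 6.40 in control livers, and *Plaa*, the phospholipase A2 activating protein, 8.01 in knockout and 8.11 in control livers. For *Rragd* the 5 were the cell cycle inhibitor *Cdkn1b* (0.97), *Fam110c*, the anti-apoptotic *Bcl2* and *Nip7* (each 0.96) and *Mfsd11* (0.95). Without knockout mice 1 and 3, which leaves 1 knockout male, the coefficients were 0.82 to 0.90. *Bcl2* averaged 7.89 in knockout and 7.22 in control livers. The nearest genes of *Gpnmb* and of *Rragd* were thus different ones, and each list was the top of a very long ranking over few mice.

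Sex and its interplay with genotype were not used to choose the genes and could be tested. None of the 10 differed between females and males past the threshold in limma (0.491% of all genes did), and 1, *Fnip2*, had an unadjusted p under 0.05. The female minus male difference of *Fnip2* was 0.32 (SE 0.11, limma adjusted p = 0.314). For *Gpnmb* it was -0.27 (SE 0.44, limma adjusted p = 0.857), for *Rragd* -0.42 (SE 0.33, limma adjusted p = 0.662) and for *Cd63* -0.51 (SE 0.33, limma adjusted p = 0.586). Without control 1 the value for *Gpnmb* turned to 0.15.

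The knockout minus control difference of *Gpnmb* was 3.55 in females and 2.26 in males (SE 0.60 each), that of *Cd63* was 2.36 in females and 1.33 in males, and that of *Rragd* was 1.69 in females and 2.68 in males (SE 0.45 each). The difference between the sexes was 1.28 for *Gpnmb* (95% interval -0.61 to 3.17, limma adjusted p = 0.886). For *Cd63* it was 1.03 (95% interval -0.36 to 2.43, limma adjusted p = 0.876), and for *Rragd* it ran the other way at -0.99 (95% interval -2.40 to 0.43, limma adjusted p = 0.882). None of the 10 genes passed this test, none had an unadjusted p under 0.05, and 0.00451% of all genes, 1 gene, passed it. The intervals are wide and exclude neither equal effects nor differences of several-fold. Without control 1, a male, the difference between the sexes was 0.30 for *Gpnmb* and 0.15 for *Cd63*, and without control 2, also a male, it was 2.26 for *Gpnmb* and 1.91 for *Cd63*. That of *Rragd* was -0.50 without knockout 1 and -1.50 without knockout 3, both males.

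The promoters show how far the start regions of the responding genes carry the letters of the CLEAR network. The 250 bases before a start annotated in the promoter table, from RefSeq on GRCm38.p6, are shown for the 3 genes with large differences and for *Rragc*, the paralogue of *Rragd* with little difference. Bases that match the palindromic E-box core CACGTG, searched on both strands, are in capitals. The positions are chr6:49036268-49036517 for *Gpnmb*, chr4:32982748-32982997 for *Rragd*, chr10:128909095-128909344 for *Cd63* and chr4:123917183-123917432 for *Rragc*, all on the plus strand. The *Cd63* window lies before the start that the promoter table lists, which is inside the annotated span of the gene given above.
Gpnmb: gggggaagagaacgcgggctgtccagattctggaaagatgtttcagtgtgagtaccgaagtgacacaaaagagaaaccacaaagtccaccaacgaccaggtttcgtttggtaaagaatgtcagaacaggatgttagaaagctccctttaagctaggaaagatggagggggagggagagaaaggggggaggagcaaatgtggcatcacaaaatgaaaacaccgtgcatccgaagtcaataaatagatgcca
Rragd: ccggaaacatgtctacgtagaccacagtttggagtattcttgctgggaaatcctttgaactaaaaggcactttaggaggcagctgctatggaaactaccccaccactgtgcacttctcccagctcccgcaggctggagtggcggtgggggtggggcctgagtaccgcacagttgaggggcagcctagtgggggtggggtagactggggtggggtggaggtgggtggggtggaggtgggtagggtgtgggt
Cd63: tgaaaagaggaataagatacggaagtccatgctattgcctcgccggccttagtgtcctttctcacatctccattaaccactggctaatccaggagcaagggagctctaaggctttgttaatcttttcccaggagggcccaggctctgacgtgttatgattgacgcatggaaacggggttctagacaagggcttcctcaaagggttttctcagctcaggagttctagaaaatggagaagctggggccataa
Rragc: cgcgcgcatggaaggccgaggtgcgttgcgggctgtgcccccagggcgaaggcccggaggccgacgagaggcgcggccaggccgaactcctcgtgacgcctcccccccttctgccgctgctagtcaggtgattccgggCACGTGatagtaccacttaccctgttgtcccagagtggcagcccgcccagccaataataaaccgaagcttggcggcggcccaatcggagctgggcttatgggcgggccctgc
Of these 4 only *Rragc* held CACGTG, once, with its first base at -112 from the start (chr4:123917321-123917326). With 50 bases after the start included, the 10 genes had 15 annotated windows of 300 bases, and that of *Rragc* was the 1 with CACGTG, against 7.15% of 32851 windows of all genes. The longer CLEAR core GTCACGTG (2.25% of all windows), the MITF motif TCACATGA (0.99%) and its core CACATG (14.15%, which includes all windows with TCACATGA) were in none of the 15. A match of letters is not a bound site, and the lack of one in so short a window says nothing of the factor, whose sites also lie in introns and farther upstream.

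Beyond the 10 genes above, 10 lists of 125 measured genes were taken. The tetraspanin list holds the protein family of *Cd63*, and the other lists hold the rest of the pathway. Of the 125, 8 were higher and 1 was lower in knockout livers past the limma threshold, where 3.11% of all genes were higher and 1.14% lower. The same shares stand beside the count of each of these lists below. The median log2 difference of the 125 was 0.01, against -0.01 over all genes. The 8 were 6 tetraspanins, *Hexa* and *Atp6v0d2*, and the 1 was a tetraspanin. Outside the tetraspanins only *Hexa* and *Atp6v0d2* passed, so the count of 8 is not one of the pathway alone. The count moved with single mice, and was 2 without control 2, 3 without control 4, 4 without knockout 2 or knockout 4 and 5 without knockout 1 or knockout 5. The count over all genes fell as well, from 690 to 233 without control 2 and 244 without control 4. It was 440 without knockout 2, 372 without knockout 4, 521 without knockout 1 and 509 without knockout 5.

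Upstream of the factors, no gene passed with all mice in the fit described above. The list of Rag, Ragulator and folliculin genes had 0 of 9 past the threshold (median -0.07), with *Lamtor2*, a Ragulator subunit, at -0.18 (limma adjusted p = 0.221) and *Rraga*, the partner of RagC and RagD, at -0.18 (limma adjusted p = 0.245). GATOR and KICSTOR, which report amino acids to the Rag GTPases, had 0 of 10 (median -0.11). There *Kptn*, of KICSTOR, was at -0.40 (limma adjusted p = 0.0759) and *Nprl3*, of the inhibitory GATOR complex, at -0.25 (limma adjusted p = 0.0994). mTORC1 and its TSC brake had 0 of 9 (median -0.09), and *Tbc1d7*, a TSC subunit, was at -0.33 (limma adjusted p = 0.0723). Of 20 alternatives, *Tbc1d7* passed as lower in 5, *Kptn* in 3 and *Nprl3* in 1, among them *Tbc1d7* (-0.43, limma adjusted p = 0.0113) and *Kptn* (-0.50, limma adjusted p = 0.0239) without control 1. Of the genes that move the factors between lysosome, cytoplasm and nucleus, 0 of 11 passed (median 0.02), among them the lysosomal calcium channel *Mcoln1* at 0.02, and the fourth family member *Tfec* was at 0.40 (limma adjusted p = 0.136).

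Downstream, most known targets lay near the median of all genes. Of 23 lysosomal CLEAR targets, 1 was higher and none lower (median 0.13). This was *Hexa*, the alpha subunit of beta-hexosaminidase, which read 10.83, 10.69, 10.46, 10.90, 10.95 and 10.61 in knockout mice 1 to 6, and 10.28, 10.08, 10.34 and 10.26 in control mice 1 to 4. The groups did not overlap, and the log2 difference was 0.50 (SE 0.10, limma adjusted p = 0.0181), a call that was lost without control 2 (0.0785) or control 4 (0.0722). *Asah1*, acid ceramidase, was at 0.34 (limma adjusted p = 0.133). A positive sign was seen in 16 of the 23, and in 10661 of all 22180 genes. Upstream it was seen in 3 of 9 Rag, Ragulator and folliculin genes, 1 of 10 of GATOR and KICSTOR and 1 of 9 of mTORC1 and TSC. Among the genes that move the factors it was seen in 9 of 11. The autophagy targets had 0 of 13 past the threshold (median 0.01), with *Map1lc3b*, which encodes LC3B, at 0.15, and the autophagy receptors other than *Sqstm1* had 0 of 4 (median 0.03).

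Of 16 vacuolar ATPase genes, whose proteins acidify lysosomes, 1 was higher (median 0.03). *Atp6v0d2*, the d2 subunit of macrophages and osteoclasts, read 7.63, 7.19 and 6.72 in knockout males against 6.09 and 5.12 in control males, and 9.16, 9.10 and 8.58 in knockout females against 8.74 and 7.53 in control females. The sexes stood apart in both genotypes, and the values of both groups overlapped in females. The genotype difference was 1.20 (SE 0.29, limma adjusted p = 0.0392), and the female minus male difference was 2.07 (SE 0.28, limma adjusted p = 0.0065). Over 20 alternatives the adjusted p for genotype ran between 0.0146 and 0.644, and 11 kept the call, which was lost without control 2 or 4 or without knockout 1, 2, 4 or 5.

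The targets of MITF in melanocytes and osteoclasts, other than *Gpnmb*, had 0 of 12 past the threshold (median -0.08). *Dct*, of melanin synthesis, was at -0.33 (limma adjusted p = 0.0585) and *Ctsk*, the collagenase of osteoclasts, at 0.33 (limma adjusted p = 0.167). The 6 melanocyte markers averaged 4.50 to 4.59 in knockout livers and 4.51 to 4.66 in control livers, close to the background, and none of them passed.

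The tetraspanins, the family of *Cd63*, had 6 of 18 higher and 1 lower (median 0.22), where 3.11% of all genes were higher and 1.14% lower. *Tspan8*, of epithelia, read 6.68, 6.65, 6.36, 7.81, 6.89 and 7.08 in knockout mice 1 to 6, and 4.76, 4.93, 5.40 and 5.41 in control mice 1 to 4. All knockout livers lay above all controls, and the log2 difference was 1.78 (SE 0.15, limma adjusted p = 0.000755). *Cd9*, a broadly expressed member, was higher by 0.64 (limma adjusted p = 0.0103), *Tspan15* by 0.49 (limma adjusted p = 0.0127) and *Tspan9* by 0.37 (limma adjusted p = 0.0239). *Cd53*, of leukocytes, was higher by 0.68 (limma adjusted p = 0.0272), and the lower one was *Tspan33* at -0.77 (limma adjusted p = 0.0318), both named after their values were seen. Of these 6 named tetraspanins, *Tspan8* alone kept it under all 20 alternatives. *Cd9* lost it with the mean of all its probe sets (limma adjusted p = 0.102) and with the replicate block, and the other 4 lost it without control 2, among other mice.

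**Figure D4:**
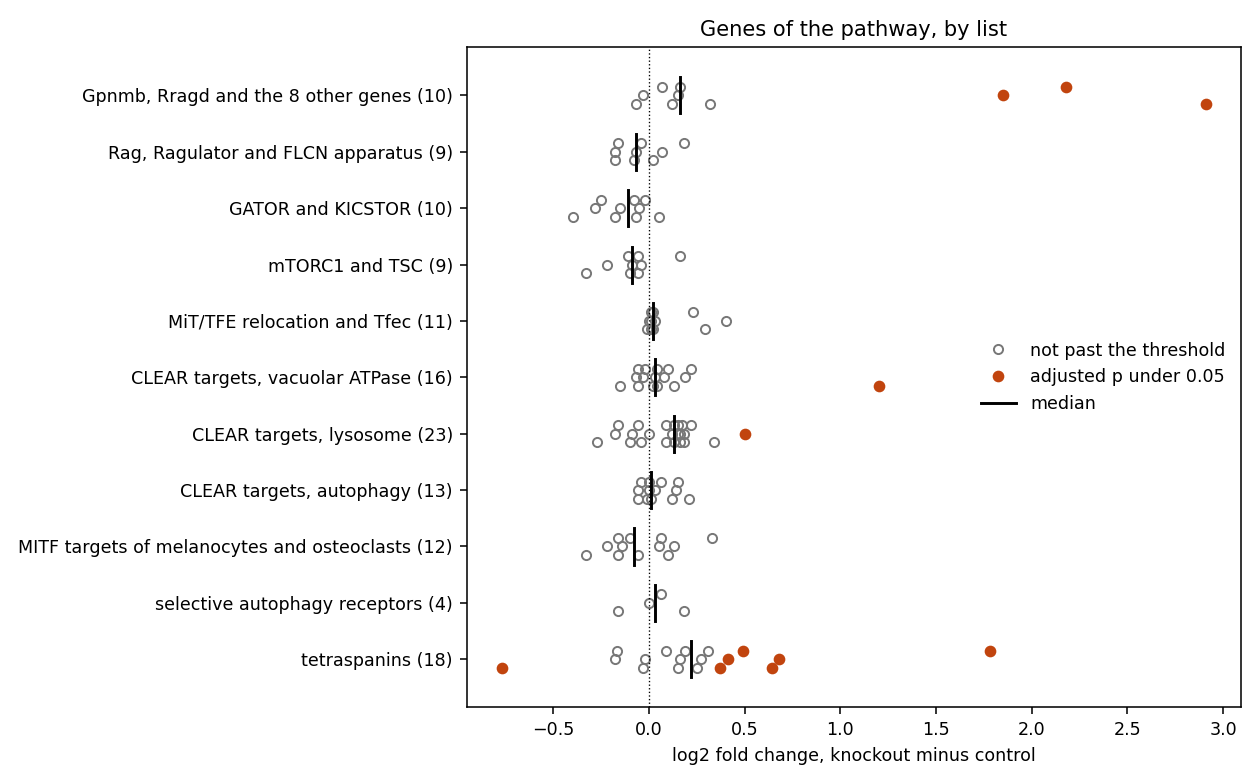
Log2 fold change, knockout minus control, of every measured gene in the lists, with the number measured in brackets, genes past the limma threshold filled and a black bar at each median. *Gpnmb* (2.91), *Rragd* (2.18) and *Cd63* (1.85) lie beyond every gene of the other lists, whose highest is *Tspan8* at 1.78.

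Some cell type markers passed the limma threshold, where 3.11% of all genes were higher and 1.14% lower. These shares stand beside every marker count below, and nothing is read from the counts. With a mouse left out, the count over all genes moved too, as given above. The part of these cell types in the differences of *Gpnmb*, *Rragd* and *Cd63* was not tested. Of 6 markers of lipid-associated macrophages, a state in which *Gpnmb* is well known, 4 were higher and none lower, though *Cd9* and *Atp6v0d2* among them also stand in the lists above. *Lpl* at 0.83 (limma adjusted p = 0.0627) and *Fabp5* at -0.14 (limma adjusted p = 0.909) did not pass, both named after their values were seen. *Fabp5* read 7.86 in control 3 and 5.03 to 5.29 in the other controls. The mean of this list was 7.78 to 8.62 in knockout livers and 6.93 to 8.26 in control livers. These ranges overlapped across the sexes, and the list holds *Atp6v0d2*, for which the sexes stood apart. Within each sex every knockout mean lay above every control mean, narrowly in females, where control 3 was the high control. *Trem2*, the lipid receptor of these cells, read 7.64, 7.49, 7.23, 7.75, 7.75 and 7.85 in knockout mice 1 to 6, and 7.16, 6.10, 6.73 and 6.03 in control mice 1 to 4. As for *Gpnmb*, control 1 was the highest control, knockout 3 the lowest knockout and the groups met without overlap (log2 difference 1.11, SE 0.21, limma adjusted p = 0.0137). *Lgals3*, which encodes galectin-3, was higher by 1.0 (limma adjusted p = 0.0258). Its highest control was control 1, but knockout 3 (7.30) was not its lowest knockout. For *Cd9* and *Atp6v0d2* control 1 was not the highest control. The call of *Trem2* was lost without control 2 (limma adjusted p = 0.0627), and that of *Lgals3* without control 2, 3 or 4 or knockout 2 (up to 0.10).

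Among 9 general macrophage markers 2 were higher, *Lyz2*, lysozyme, by 0.63 (limma adjusted p = 0.0289) and *Cd68*, a macrophage lysosomal protein, by 1.21 (limma adjusted p = 0.0493), and the list averaged 8.48 to 8.91 in knockout livers and 7.89 to 8.42 in control livers. These calls stood near the threshold, and 12 of 20 alternatives kept that of *Lyz2* and 10 of 20 that of *Cd68*. The count of 2 became 0 without control 2 or 4 or without knockout 2 or 4. Knockout 3 was the lowest knockout and control 1 the highest control for this mean too. The ranks were not particular to macrophages. Knockout 3 was also the lowest knockout for the bile duct (6.55), dendritic cell (5.87) and lymphocyte (5.45) means. Control 1 was the highest control for lymphocytes (5.68), but not for the lipid-associated macrophage (7.34) or Kupffer cell (9.28) means. For the Kupffer cell mean knockout 3 was not the lowest knockout either (9.45). *Adgre1*, a surface marker of macrophages, was at 0.58 (limma adjusted p = 0.10). Of the 5 Kupffer cell markers 1 passed, *Cd5l*, higher by 0.78 (limma adjusted p = 0.0368), and all 5 had a positive sign, with means of 9.27 to 9.93 in knockout livers and 8.82 to 9.34 in control livers. The call of *Cd5l* was kept in 12 of 20 alternatives, and the Kupffer count was 0 without control 2 or 4 or without knockout 1, 2, 4 or 5, 4 without knockout 6 and 5 with array weights. Of the 6 dendritic cell markers 1 passed, *Itgax* at 0.89 (limma adjusted p = 0.0134), with means of 5.87 to 6.19 in knockout livers and 5.54 to 5.84 in control livers, and the call was lost without control 4 (limma adjusted p = 0.0531).

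Of 5 bile duct markers 3 were higher, led by *Epcam* at 1.14 (limma adjusted p = 0.000996), and the mean of the list was 6.55 to 6.89 in knockout livers and 5.89 to 6.11 in control livers, without overlap. The call of *Epcam* was kept in 20 of 20 alternatives, that of *Sox9* in 19 and that of *Krt19* in 17. *Krt19* lost it without control 2 (limma adjusted p = 0.0596) or control 4 (limma adjusted p = 0.0594), and both *Krt19* and *Sox9* lost it with the replicate block. Cholangiocytes are cells in which AlfpCre acts. Stellate cell and fibroblast markers had 2 of 7 higher, endothelial markers 1 of 6, neutrophil markers 1 of 6 and lymphocyte markers 0 of 7, and none of these lists had a lower gene. Without control 2 or control 4 the stellate, endothelial and neutrophil counts were 0. The endothelial gene, *Cdh5*, kept its call in 9 of 20 alternatives and lost it in every fit without 1 mouse except those without knockout 6 or control 1. The 10 hepatocyte markers defined the tissue in every liver, with means of 12.87 to 12.99 in knockout livers and 12.95 to 13.03 in control livers, and 0 of 10 passed.

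**Figure D5:**
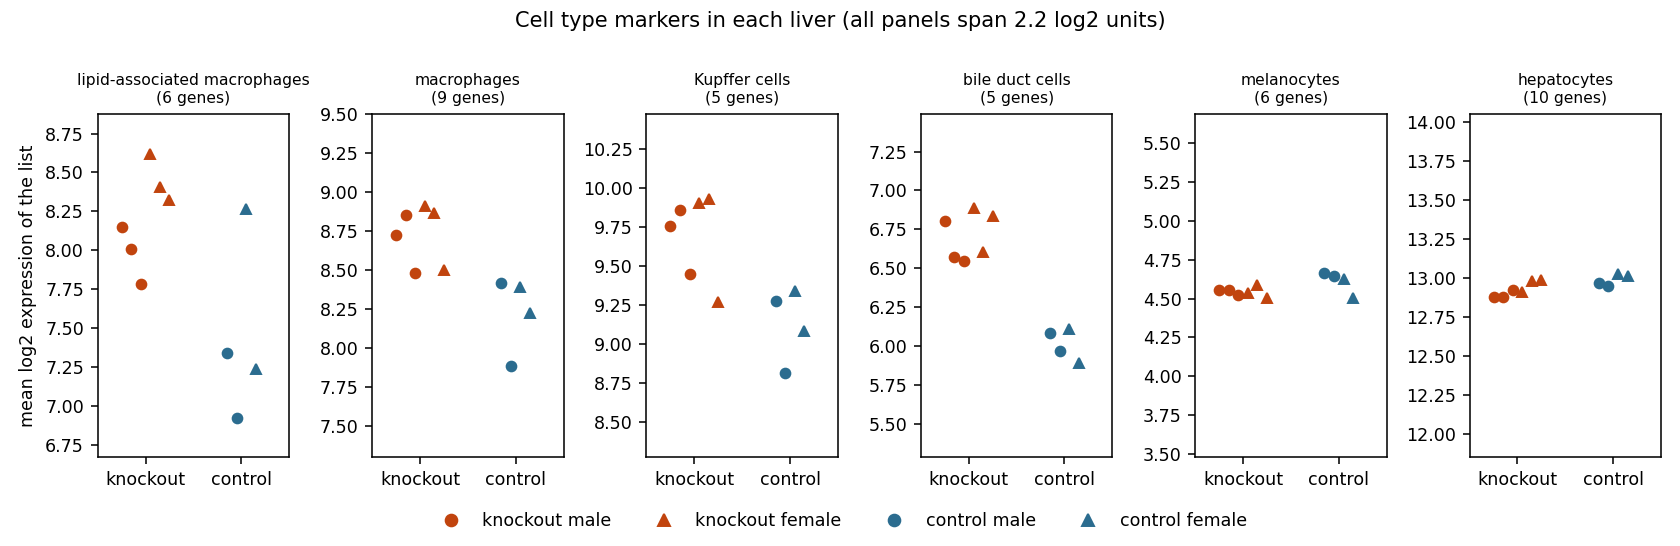
Mean log2 expression of 6 marker lists in each liver, with knockout mice on the left and control mice on the right, circles for males and triangles for females. The bile duct means do not overlap (6.55 to 6.89 in knockout, 5.89 to 6.11 in control livers), and melanocyte means stay between 4.50 and 4.66. Those of lipid-associated macrophages overlap across the sexes (7.78 to 8.62 in knockout, 6.93 to 8.26 in control livers). Within each sex their knockout means lie above their control means, narrowly in females.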

How the data were processed

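Total liver RNA of 10 mice was hybridised to Affymetrix Mouse Gene 2.0 arrays, 1 per mouse. The deposited values are log2 probe set levels, which the authors obtained with the RMA method of oligo (the versions are not given) and which were not scaled further. Array medians were 4.71 to 4.82 and correlations between arrays 0.982 to 0.991. The number of arrays limits the precision. Of 41345 probe sets, 23521 carried 1 symbol in the platform annotation, 1820 several and 16004 none listed. The probe set of highest mean was kept for the 1082 genes with more than 1, leaving 22180 genes.

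Genotype and sex were fitted in limma 3.58.1 (R 4.3.3), and the difference between the sexes in a fit of 4 groups, with Benjamini-Hochberg adjustment over all genes at 0.05. The fits were tested on simulated data. Correlations used exact permutation tests (scipy 1.17.1). Intervals are 95%. The labels name separate mice, and the study's text given here names no test per gene.

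The 10 genes, the 10 lists of the pathway and the tetraspanins, and the 11 marker lists were chosen with earlier results of these data known. Named were the 10 genes, *Vps33b*, up to 4 genes per list with the smallest p, defining markers, and the 5 genes most like *Gpnmb* and the 5 most like *Rragd*. Alternatives were other model terms, probe set rules, filters on dim genes, scalings, moderation, array weights, each mouse left out and a replicate block. Leaving out the most deviant mice from the likeness ranking was chosen after seeing the data. Promoter windows came from RefSeq (GRCm38.p6), and all 10 genes matched. No slide or scan date was used. Protein sequences and pathway collections were not used here.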

Additional observations from a re-analysis of the deposited data

Results flagged for a closer look

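In control livers, the *Gpnmb* value of control 1, 7.34, stood far from the other controls, with a gap of 0.849 of the range of the group, above Dixon's critical value for 4 mice. In knockout livers, the *Mitf* value of knockout 2, 7.24, stood above the others with a gap of 0.656 of the range, above Dixon's critical value for 6 mice. The check was made in 22 groups of values, those of 11 genes in both genotypes, and chance alone picks out about 1 group in 20.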

How the results depend on the processing

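Over 21 alternatives *Gpnmb* kept a log2 difference of 2.68 to 3.43, *Rragd* one of 1.92 to 2.51 and *Cd63* one of 1.63 to 2.30, a description, since this contrast chose the genes. The number of the 10 genes past the threshold ran from 2 to 4 when 1 mouse was left out. Signs of *Tfeb* (-0.10 to 0.03) and *Flcn* (0.00 to 0.15) were not stable. With 1 mouse left out, the female minus male difference of *Gpnmb* ran from -0.67 to 0.15, reversed without control 1, and the difference between the sexes of *Fnip2* from -0.01 to 0.35, reversed without control 2. The sex tests called none of the 10 under any alternative run.

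Pathway genes that were higher, 8 with all mice, numbered 2 to 9 when 1 mouse was left out. Those that were lower, 1 with all mice, numbered 0 to 3 when 1 mouse was left out, 3 with a filter for log2 values of at least 5 in 4 arrays, 4 with one of at least 6, 2 with arrays centred on their median, 2 after quantile normalisation again, 2 with an intensity trend and robust prior, and 3 with array weights. The filters tested fewer genes, and the cause was not tested otherwise.

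Both genotypes carry replicate numbers 1 to 4, but number 3 joins a female and a male, correlations of same-numbered deviations were -0.223 to 0.292, and 0 controls matched best the knockout of their own number. These values give no sign that the numbers pair the mice. They cannot exclude it, because few numbers are shared and the deviations kept the difference between the sexes. The number of mice, with 1 array each, limits these calls. The replicate number was also fitted as a block. This fit had no sex term and rested on numbers 1 to 4 alone, without the knockout mice of unshared number. With the block, 2 of the 10 genes passed as higher, without *Cd63* (1.95), and 0 as lower. Of the pathway genes, 1 was higher and 0 were lower. Over all genes, 84 were higher and 28 lower, against 690 and 252 with all mice. Whether the block, the missing mice or the missing sex term cost these calls was not tested.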
